A study of Mus musculus with 12 samples.

Results

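The collagen genes were followed as a family in kidneys of mice with and without cystic disease. Every gene in the deposited table whose symbol has the form Col, a type number, the letter a and a chain number was taken, which gave 44 genes of 54532. Genes named for a collagen but without that form, such as those for collagen-like or collagen-binding proteins, are not among them. Of the 44 genes, 43 had an average of at least -3 on the log2CPM scale (CPM, counts scaled to a common library size) and were tested. Col9a1, a chain of the cartilage collagen IX, had at most 3 counts in any mouse and was left untested.

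RNA was measured by sequencing of whole kidneys from C57BL/6 mice (C57BL/6 J by the methods of the study) killed at 18 days of age, with 3 mice in each of 4 groups. Every mouse carried 1 Pkd1 allele with the RC mutation and 1 floxed Pkd1 allele (F). The noncystic groups were Pkd1 RC/F; Pkd2+/+ (mice 19 to 21) and Pkd1 RC/F; Pkd2 Δ17/Δ17 (mice 22 to 24), the latter lacking the binding motif for the microRNA miR-17 in the 3' untranslated region (3'-UTR) of both copies of Pkd2. The cystic groups were KspCre; Pkd1 RC/F; Pkd2+/+ (mice 25 to 27) and KspCre; Pkd1 RC/F; Pkd2 Δ17/Δ17 (mice 28 to 30), in which the Ksp promoter drives Cre in kidney tubule cells and the floxed allele is lost there (Pkd1 RC/-). Cre was therefore present in both cystic groups and absent from both noncystic groups, and its presence and the disease cannot be told apart. The sources used here give neither sex nor litter for a mouse, and the p-values measure the spread between these mice alone.

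Collagens are trimers of alpha chains wound into a triple helix, and each chain carries long stretches of the repeat Gly-X-Y. Fibrillar collagens (types I, II, III, V, XI, XXIV and XXVII) build the tensile fibrils of the interstitium, type IV collagen forms the sheet-like network of basement membranes, and the FACIT group (fibril-associated collagens with interrupted triple helices) sits on the surface of fibrils. In the kidney, the tubules, capillaries and glomeruli rest on type IV networks of differing chain makeup, and accumulation of interstitial collagen is the hallmark of fibrosis.

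The 44 genes were sorted into 11 fibrillar genes, 6 basement membrane genes, 9 FACIT genes and 18 others, the last covering beaded filaments (type VI), multiplexins (types XV and XVIII), short-chain networks (types VIII and X), the anchoring fibril (type VII), transmembrane collagens and types XXVI and XXVIII. One coding transcript per gene from the GENCODE M21 annotation (build GRCm38) was translated. The longest unbroken run of Gly-X-Y triplets was 216 to 344 in the fibrillar genes, with 338 in Col1a1, 344 in Col3a1 and 216 in Col24a1, and was shorter in every other gene. The remaining classes overlapped, at 39 to 66 in the basement membrane genes, 32 to 113 in the FACIT genes and 23 to 87 in the others. The longest run was 40 in Col4a1 and 39 in Col4a3, whose helices are broken into 22 and 24 runs of at least 5 triplets, and 32 in the FACIT chain Col12a1, where such runs made up 8.1% of a protein of 3065 residues. Several of the genes also lie side by side. Col4a1 (chr8:11198423-11312826, minus strand) and Col4a2 (chr8:11312805-11449287, plus strand) are placed head to head, as are Col4a4 (chr1:82448423-82586849, minus strand) and Col4a3 (chr1:82586921-82722059, plus strand), with 71 bases between them, and Col4a6 and Col4a5 on the X chromosome, with 1308 bases between them. Col3a1 and Col5a2 lie tail to tail on chromosome 1.

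A short sequence that the choice of genes did not use was more frequent in the 3'-UTRs of the family than over all coding genes. The microRNAs of the miR-29 family are known to repress collagen mRNAs through a seed match in the 3'-UTR. The mature sequences (RefSeq, GRCm38.p6) are shown because the seed, bases 2 to 8 in capitals, is the same in all members, with that of miR-17, whose site was removed from Pkd2, for comparison.
mmu-miR-29a-3p: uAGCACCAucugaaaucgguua
mmu-miR-29b-3p: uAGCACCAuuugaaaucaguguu
mmu-miR-29c-3p: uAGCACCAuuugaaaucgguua
mmu-miR-17-5p: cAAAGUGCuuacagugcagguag

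The match to the miR-29 seed, the letters TGGTGCT on the transcript strand, was in the annotated 3'-UTR of 25 of the 44 collagen genes (56.8%), against 13.1% of 21018 coding genes. Collagen 3'-UTRs were of ordinary length (a median of 1032 bases against 960), and the match occurred 0.693 times per kb in them against 0.106 times per kb over all coding genes. The match to the miR-17 seed, GCACTTT, was in 5 collagen genes (11.4%), against 11.8% of coding genes. The windows that follow are examples from collagen genes named below, read 5' to 3' from GENCODE M21 transcripts (GRCm38). The match to the miR-29 seed is in capitals. Each match shown is followed by an A, which holds for only some matches in the family and for none in Col4a3. All lie in the last exon, in the 3'-UTR.
Col1a1 (chr11:94952530-94952552, plus strand): ggaatttcTGGTGCTatagaagc
Col3a1 (chr1:45348974-45348996, plus strand): tgtctcaaTGGTGCTataataaa
Col5a2 (chr1:45374958-45374980, minus strand): tttaatgaTGGTGCTaaaattat
Col15a1 (chr4:47312492-47312514, plus strand): ccacatatTGGTGCTagattctg
Col8a1 (chr16:57624698-57624720, minus strand): ttctaccaTGGTGCTaatatcag
Col4a1 (chr8:11199754-11199776, minus strand): tcacaacaTGGTGCTactccccc
Col4a5 (chr X:141688245-141688267, plus strand): cccaccaaTGGTGCTaatatcct

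Col12a1, Col1a2, Col8a2 and Col18a1 held no match in their annotated 3'-UTR, and Col4a3, Col5a1 and Col26a1 held 4 each. A match is a description of the letters, and binding was not measured.

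Sequencing depth ran from 18800307 to 24453033 counts per mouse, so that 1 count was worth 0.0387 to 0.0570 CPM (on TMM-scaled library sizes). Pkd2 mRNA, read as a check of the labels, was at 194 to 219 CPM in the noncystic Pkd2+/+ mice and 270 to 286 CPM in the noncystic Pkd2 Δ17/Δ17 mice. It was at 213 to 233 CPM in the cystic Pkd2+/+ mice and 307 to 337 CPM in the cystic Pkd2 Δ17/Δ17 mice. The proximal tubule markers, which define the kidney here, summed to 2469 CPM or more in every mouse. A list of 6 adrenal gland genes summed to 308 CPM in mouse 30 and 46.0 CPM in mouse 27, against 3.69 to 7.15 CPM in the other mice, so the counts of called genes are also given without these mice. The strand setting of the counting is not given in the sources used here, and 13 collagen genes share exon sequence with another gene, Col4a1 and Col4a2 with each other among them, so that their counts are less certain.

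In noncystic Pkd2+/+ kidneys, collagens made up 0.569% ± 0.0213 (SD, n = 3) of all counts, and the genes for the basement membrane led. Col4a1 and Col4a2, which form the network of nearly every basement membrane, stood at 169 ± 15.5 and 119 ± 11.9 CPM per kb of exon (SD, n = 3), ahead of Col3a1 at 75.6 ± 5.02 and Col18a1, the source of endostatin, at 72.03 ± 3.95. Col3a1 and Col18a1 did not differ beyond their spread. The order of the genes depends on the length used, which counts the exon bases of all annotated transcripts of a gene. It was 12426 bases for Col1a2 and 9816 for Col3a1, whose proteins have 1372 and 1464 residues. For Col4a2 it was 6619 bases, with a protein of 1707 residues. Without division by length, Col4a1, Col4a2 and Col3a1 were at 1263, 786 and 743 CPM.

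The chains of type I collagen followed, with Col1a2 at 47.3 ± 1.18 and Col1a1 at 42.0 ± 1.76 CPM per kb. Col6a1 of the beaded filaments was at 36.6 ± 4.88 and Col4a4 at 31.5 ± 1.54. Col15a1, Col4a3 and Col4a5 lay together at 26.2 ± 2.01, 26.2 ± 2.12 and 25.98 ± 0.938. At the other end, Col2a1, the main collagen of cartilage, was at 0.0282 ± 0.0139 CPM per kb, and Col10a1, which marks hypertrophic cartilage, was at 0.0115 ± 0.0100.

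In cystic Pkd2+/+ kidneys the collagen genes took a larger part of the RNA than in noncystic Pkd2+/+ kidneys. Their counts summed to 5980, 5849 and 6255 CPM in the noncystic mice and to 8087, 10710 and 8711 CPM in the cystic mice, and the groups did not overlap. The FACIT class stood at 167 ± 14.0 CPM in the noncystic and 567 ± 113 CPM in the cystic kidneys (SD, n = 3), the fibrillar class at 1878 ± 45.6 and 3459 ± 711 CPM, the other collagens at 1146 ± 62.3 and 1776 ± 159 CPM, and the basement membrane class at 2837 ± 179 and 3366 ± 401 CPM. Within the FACIT sums, Col12a1 alone gave 25.2 ± 2.47 CPM in the noncystic and 362 ± 83.5 CPM in the cystic kidneys. Most of the difference in that class therefore lay in a single gene. Basement membrane genes gave 47.0% ± 1.34 of all collagen counts in the noncystic kidneys and 36.8% ± 1.49 in the cystic kidneys. Whole kidneys were measured, so a change in the number of cells of a type and a change in RNA per cell cannot be told apart.

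**Figure D1:**
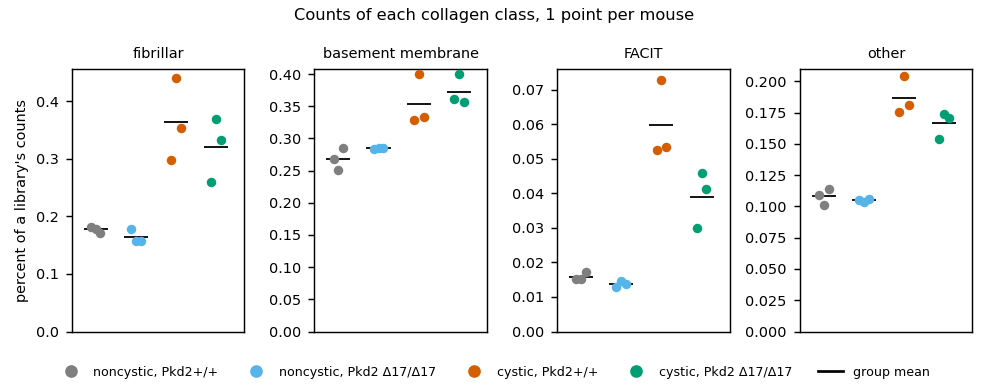
Counts of the fibrillar, basement membrane, FACIT and other collagen genes as a percent of each library's counts (y axis, from 0), with 1 point per mouse and a line at each group mean, by group. In each class, every cystic mouse lies above every noncystic mouse.

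Gene by gene, 26 of the 43 tested collagens passed an adjusted p of 0.05 between cystic and noncystic Pkd2+/+ kidneys (quasi-likelihood test of edgeR, Benjamini-Hochberg adjusted over all 24642 genes tested), where 31.1% of all genes tested did. Of these, 19 were higher in the cystic kidneys, against 16.9% of all genes, and 7 were lower, against 14.2%. The median log2 fold change was 0.44 over the collagens and 0.02 over all genes. The 3 cystic mice lay wholly above the 3 noncystic mice for 17 collagens and wholly below for 9. Over all 24642 genes tested they lay wholly above for 5428 and wholly below for 4857, together 41.7%. The shares of collagens called lower or lying wholly below were thus close to those of all genes. When mice 27 and 30 were left out, 26 collagens were called.

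**Figure D2:**
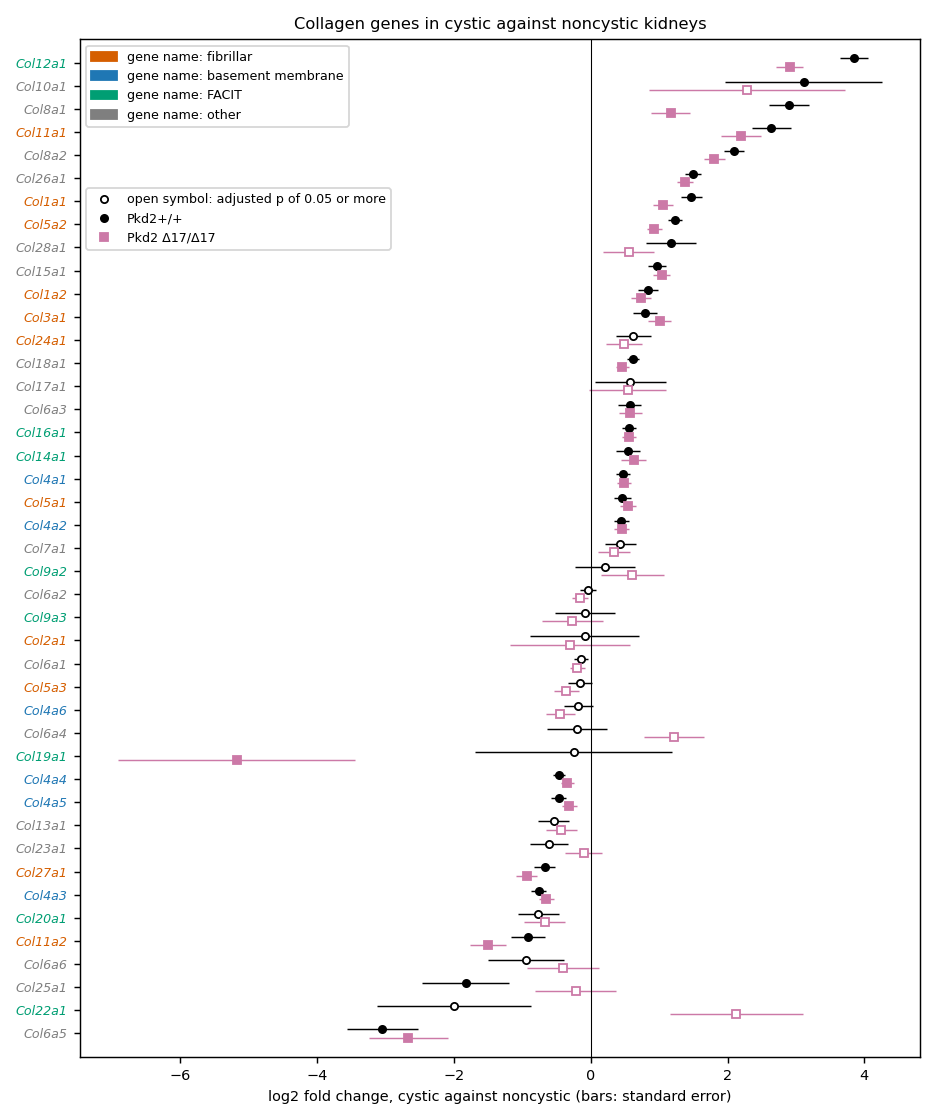
Log2 fold change (x axis) of the 43 tested collagen genes (y axis, coloured by class) between cystic and noncystic kidneys in Pkd2+/+ mice (black circles) and Pkd2 Δ17/Δ17 mice (pink squares), with bars for the standard error and filled symbols for an adjusted p under 0.05. Col12a1 stands furthest to the right in both genotypes, and the wide bars of Col10a1, Col19a1 and Col22a1 belong to genes with at most 17 counts in any mouse.

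Among the fibrillar genes, 6 of 11 were higher and 2 lower in cystic Pkd2+/+ kidneys. Col1a1, which encodes the alpha 1 chain of type I collagen, was at 287, 264 and 275 CPM in the noncystic mice and 668, 862 and 764 CPM in the cystic mice. Every cystic mouse was above every noncystic mouse. The gene was 2.77-fold higher (log2 1.47, SE 0.15, edgeR adjusted p = 1.41e-06). Its partner chain Col1a2 was at 594, 600 and 572 CPM in the noncystic and 860, 1266 and 1036 CPM in the cystic mice, a 1.79-fold difference (log2 0.84, SE 0.15, edgeR adjusted p = 0.000269).

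The chains of the type I trimer, which holds a pair of alpha 1 chains for each alpha 2 chain, thus differed by unequal amounts. The ratio of Col1a1 to Col1a2, per kb of exon, was 0.917, 0.835 and 0.911 in noncystic Pkd2+/+ mice. It was 1.47, 1.29 and 1.40 in cystic Pkd2+/+ mice, and the groups did not overlap. The size of the ratio depends on the exon lengths used, which are the same for every mouse. With 3 mice against 3, an exact two-sided permutation test cannot go below p = 0.1, so no test is given for such ratios.

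Col3a1, the chain of type III collagen that accompanies type I in distensible tissue, was at 735, 795 and 698 CPM in noncystic mice and 943, 1698 and 1209 CPM in cystic mice (log2 0.79, SE 0.17, edgeR adjusted p = 0.00200). All cystic mice were above all noncystic mice, with mouse 26 far above the other two. Col5a2, a chain of the type V collagen from which fibrils are nucleated, was at 54.3, 55.1 and 52.2 CPM in noncystic and 120, 151 and 110 CPM in cystic mice (log2 1.23, SE 0.11, edgeR adjusted p = 2.30e-07). Its partner Col5a1 differed less, with a log2 fold change of 0.46 (SE 0.12, edgeR adjusted p = 0.00676).

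Col11a1, best known from cartilage fibrils, was at 4.88, 2.79 and 4.07 CPM in noncystic and 16.5, 34.2 and 23.1 CPM in cystic mice. The groups were well apart, at a 6.24-fold difference (log2 2.64, SE 0.29, edgeR adjusted p = 2.85e-06). The partner chain Col11a2 went the other way, from 2.75, 2.97 and 3.20 CPM to 1.82, 1.32 and 1.55 CPM (log2 -0.92, SE 0.25, edgeR adjusted p = 0.00963). Of a list of cartilage markers with 5 tested genes, 1 was higher and 1 lower, and the list summed to 7.27 to 7.30 CPM in noncystic and 5.26 to 7.34 CPM in cystic Pkd2+/+ mice.

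Col27a1, a fibrillar collagen with a short helix, was also lower in the cystic kidneys. It was at 117, 91.6 and 120 CPM in noncystic and 86.9, 49.3 and 69.5 CPM in cystic mice, a 1.60-fold difference (log2 -0.67, SE 0.15, edgeR adjusted p = 0.00238). Col24a1 had a log2 difference of 0.62 (SE 0.26) and an edgeR adjusted p of 0.080, Col5a3 one of -0.16 (SE 0.17) and an adjusted p of 0.559, and Col2a1 stayed near the limit of detection at 0.114 to 0.356 CPM across these mice.

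**Figure D3:**
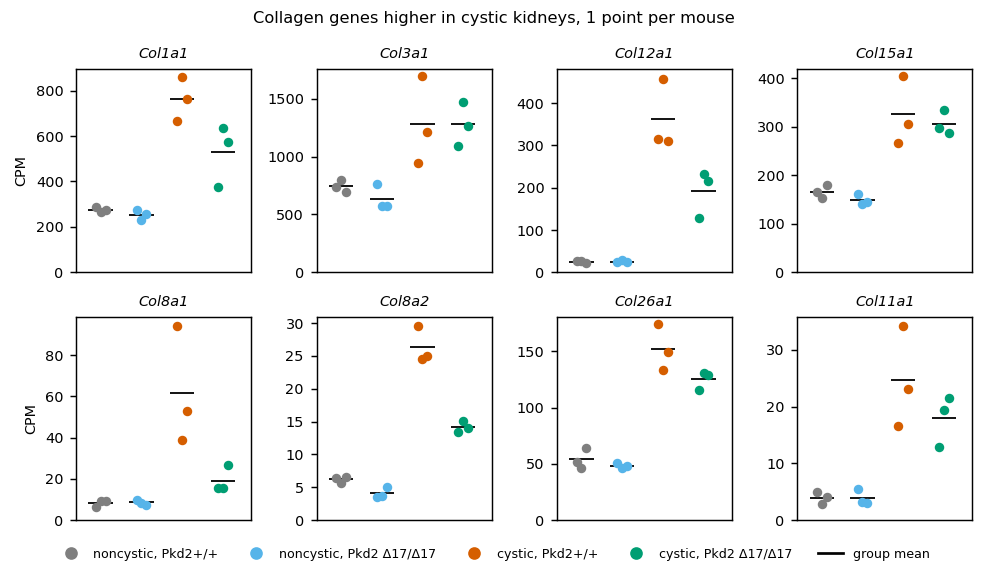
CPM (y axis, from 0, a scale of its own in each panel) of 8 collagen genes in every mouse by group, with a line at each group mean. Col12a1, Col8a1, Col8a2 and Col11a1 are near the bottom of their panels in all noncystic mice. The cystic Pkd2 Δ17/Δ17 mice lie below the cystic Pkd2+/+ mice for Col12a1, Col8a1, Col8a2, Col1a1 and Col26a1. Of these, Col1a1 and Col26a1 did not pass the test between the cystic groups.

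Among the 8 tested FACIT genes, 3 were higher and none was lower in cystic Pkd2+/+ kidneys. Col12a1, whose product bridges type I fibrils and the surrounding matrix, had the largest log2 difference of the 43 tested collagens. It was at 26.6, 26.6 and 22.3 CPM in noncystic mice and 316, 458 and 311 CPM in cystic mice, a 14.4-fold difference (log2 3.85, SE 0.20, edgeR adjusted p = 4.35e-09). By level per kb it ranked 22 of the 44 collagens in noncystic Pkd2+/+ kidneys and 9 in cystic Pkd2+/+ kidneys.

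Col16a1, another fibril-associated chain, was at 51.8, 48.0 and 48.7 CPM in noncystic and 70.4, 75.4 and 73.6 CPM in cystic mice (log2 0.56, SE 0.10, edgeR adjusted p = 0.000445). Col14a1, which binds fibrils through decorin, was at 73.1, 82.6 and 108 CPM in noncystic and 107, 161 and 117 CPM in cystic mice (log2 0.55, SE 0.18, edgeR adjusted p = 0.0247). The groups overlapped for Col14a1, and its adjusted p was 0.121 without mouse 19, 0.102 without mouse 20 and 0.146 without mouse 26. Of the other FACIT genes, Col20a1 had a log2 difference of -0.77 (SE 0.30) and an edgeR adjusted p of 0.0635, while Col9a2, Col9a3, Col19a1 and Col22a1 were under 2 CPM in every mouse.

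The 6 genes of type IV collagen divided by chain. Col4a1 was at 1214, 1181 and 1395 CPM in noncystic and 1592, 1997 and 1671 CPM in cystic Pkd2+/+ mice, a 1.39-fold difference (log2 0.47, SE 0.11, edgeR adjusted p = 0.00231). Col4a2, its partner in the trimer and its head-to-head neighbour, had a log2 difference of 0.45 (SE 0.11, edgeR adjusted p = 0.00411). The ratio of Col4a1 to Col4a2 per kb was 1.43 ± 0.0151 in noncystic and 1.45 ± 0.0207 in cystic mice (SD, n = 3), so the pair kept close to 1 proportion.

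The chains of the mature glomerular basement membrane, mutated in Alport syndrome, were lower. Col4a3 was at 283, 241 and 258 CPM in noncystic and 158, 174 and 129 CPM in cystic mice (log2 -0.76, SE 0.12, edgeR adjusted p = 7.26e-05). Col4a4 was at 352, 333 and 319 CPM in noncystic and 255, 255 and 219 CPM in cystic mice (log2 -0.46, SE 0.09, edgeR adjusted p = 0.000713). Col4a5 was at 181, 173 and 169 CPM in noncystic and 121, 145 and 113 CPM in cystic mice (log2 -0.47, SE 0.11, edgeR adjusted p = 0.00301). All cystic mice were below all noncystic mice for each of these chains.

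Col4a6, which pairs with Col4a5 in basement membranes outside the glomerular filter, was at 15.8, 20.8 and 16.6 CPM in noncystic and 13.4, 20.7 and 12.9 CPM in cystic mice, and the groups overlapped (log2 -0.18, SE 0.22, edgeR adjusted p = 0.592). Col4a1 and Col4a2 together stood at 3.45 ± 0.432 times the sum of Col4a3, Col4a4 and Col4a5 per kb in noncystic kidneys and at 6.96 ± 0.647 times in cystic kidneys (SD, n = 3), with no overlap. Markers of podocytes, the cells that make the chains of the glomerular filter, moved with Col4a3, Col4a4 and Col4a5. Of 6 podocyte genes, 5 were lower and 1 higher, and the list summed to 595 to 704 CPM in noncystic and 341 to 399 CPM in cystic Pkd2+/+ mice. Markers of some other cells were lower with disease too, with 6 of 6 proximal tubule and 4 of 6 endothelial genes lower. Of the thick ascending limb genes, 4 of 6 were lower and 1 higher. The lists for mural cells or myofibroblasts, macrophages and collecting duct had no lower gene. The part of any of these cells in the result was not tested.

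**Figure D4:**
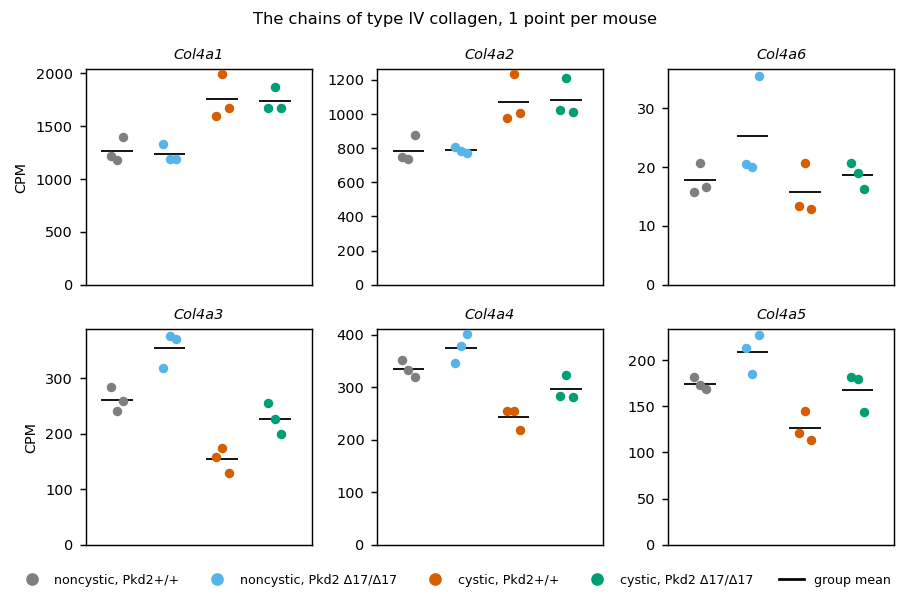
CPM (y axis, from 0, a scale of its own in each panel) of the 6 genes of type IV collagen in every mouse by group, with a line at each group mean. Col4a1 and Col4a2 are higher in cystic than in noncystic mice, whereas Col4a3, Col4a4 and Col4a5 are lower in cystic mice of the same Pkd2 genotype.

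Among the other 18 collagens, 8 were higher and 2 lower in cystic Pkd2+/+ kidneys. Both chains of type VIII collagen, a short-chain collagen of hexagonal networks under endothelium, were among the higher ones. Col8a1 was at 6.49, 9.01 and 9.41 CPM in noncystic and 94.2, 38.7 and 52.7 CPM in cystic mice, a 7.46-fold difference (log2 2.90, SE 0.29, edgeR adjusted p = 1.14e-06). Col8a2 was at 6.39, 5.59 and 6.61 CPM in noncystic and 29.6, 24.5 and 25 CPM in cystic mice, a 4.25-fold difference (log2 2.09, SE 0.15, edgeR adjusted p = 3.85e-08). The cystic mice spread widely for Col8a1, with mouse 25 highest, and narrowly for Col8a2. Of 6 endothelial genes none was higher and 4 were lower.

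Col26a1, a little-studied collagen first described in testis and ovary, was at 51.8, 46.1 and 64.1 CPM in noncystic and 174, 134 and 149 CPM in cystic mice, a 2.82-fold difference (log2 1.495, SE 0.11, edgeR adjusted p = 8.83e-08). The multiplexins, proteoglycan collagens that lie next to basement membranes, were both higher with no overlap. Col15a1 was at 166, 154 and 179 CPM in noncystic and 267, 405 and 305 CPM in cystic mice (log2 0.97, SE 0.13, edgeR adjusted p = 1.37e-05). Col18a1 was at 536, 482 and 499 CPM in noncystic and 716, 838 and 773 CPM in cystic mice (log2 0.62, SE 0.09, edgeR adjusted p = 4.38e-05).

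The beaded filament collagen VI gave a mixed picture. Col6a1 was at 140, 159 and 182 CPM in noncystic and 142, 159 and 134 CPM in cystic mice (log2 -0.14, SE 0.11, edgeR adjusted p = 0.371), and Col6a2 had a log2 difference of -0.03 (SE 0.12, edgeR adjusted p = 0.877). Under library totals in place of TMM scaling the signs turned, to 0.02 for Col6a1 and 0.13 for Col6a2. Col6a3, the long chain of the same trimer, was at 92.4, 84.8 and 96.7 CPM in noncystic and 95.5, 184 and 128 CPM in cystic mice (log2 0.57, SE 0.17, edgeR adjusted p = 0.0153). The groups overlapped, and the adjusted p of Col6a3 was 0.0775 without mouse 20 and 0.113 without mouse 26.

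Col6a5, an alternative to the Col6a3 chain of type VI collagen, was lower by 8.26-fold (log2 -3.05, SE 0.52, edgeR adjusted p = 0.000204). It had 56, 66 and 131 counts in noncystic and 14, 12 and 10 counts in cystic mice, with no overlap. Col25a1, a transmembrane collagen of neurons, was the other lower gene, with 14, 21 and 6 counts in noncystic and 9, 3 and 2 counts in cystic mice (edgeR adjusted p = 0.0368). The groups overlapped, and its adjusted p was 0.0739 without mouse 19, 0.183 without mouse 20, 0.101 without mouse 26 and 0.126 without mouse 27.

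The remaining higher genes rested on few counts. Col28a1, a collagen of peripheral nerve, had 11, 27 and 17 counts in noncystic and 49, 68 and 31 counts in cystic mice (log2 1.17, SE 0.37, edgeR adjusted p = 0.0218), with overlap on the CPM scale, and an adjusted p of 0.106 without mouse 19, 0.0807 without mouse 21 and 0.144 without mouse 26. Col10a1 had 0, 1 and 1 counts in noncystic and 4, 17 and 2 counts in cystic mice (edgeR adjusted p = 0.04996, just under the threshold), shares exon sequence with Nt5dc1 on the other strand, and had an adjusted p of 0.383 without mouse 26, 0.154 without mouse 19, 0.0916 without mouse 20 and 0.0997 without mouse 21. With only the groups compared or with Xist as a covariate, Col10a1, Col25a1 and Col28a1 had edgeR adjusted p-values of 0.0507 to 0.0896. Col7a1, Col13a1, Col17a1, Col23a1, Col6a4 and Col6a6 did not pass the test, with adjusted p between 0.0877 for Col13a1 and 0.787 for Col6a4.

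The same comparison in Pkd2 Δ17/Δ17 mice, which shares no mouse with the comparison in Pkd2+/+ mice, called 24 collagens. Of these, 17 were higher, where 12.8% of all genes tested were, and 7 were lower, where 10.2% were. Of the collagens, 23 were called in the same direction in both genotypes and none in opposite directions, which is 88.5% of the calls in Pkd2+/+ mice and 95.8% of the calls in Pkd2 Δ17/Δ17 mice. Over all genes tested the corresponding shares were 63.0% and 85.0%. Without mice 27 and 30, 20 collagens were called, and Col8a1 had an adjusted p of 0.0536.

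Among the higher genes Col12a1 again had the largest log2 difference, at 24.7, 28.2 and 23.8 CPM in noncystic and 128, 232 and 216 CPM in cystic Pkd2 Δ17/Δ17 mice (log2 2.91, SE 0.20, edgeR adjusted p = 9.93e-08). Col1a1 was at 276, 229 and 256 CPM in noncystic and 376, 634 and 572 CPM in cystic mice of this genotype (log2 1.06, SE 0.15, edgeR adjusted p = 6.55e-05). Col3a1 was at 761, 575 and 571 CPM in noncystic and 1092, 1473 and 1269 CPM in cystic mice (log2 1.01, SE 0.17, edgeR adjusted p = 0.000409). Every cystic mouse was above every noncystic mouse for these chains of the interstitial fibril.

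In Pkd2 Δ17/Δ17 mice Col4a1 and Col4a2 were again higher with disease, with log2 differences of 0.49 and 0.46 (SE 0.11 for both, edgeR adjusted p = 0.00266 and 0.00529). Col4a3 was lower by -0.65 (SE 0.12, edgeR adjusted p = 0.000519). Col4a4 and Col4a5 were called at -0.34 and -0.31 (edgeR adjusted p = 0.0101 and 0.0475), but with library totals their adjusted p-values were 0.130 and 0.284. Without mouse 24 they were 0.0595 and 0.194, and without mouse 30 they were 0.0504 and 0.226. For Col4a5 the adjusted p was also 0.101 without mouse 22 and 0.0561 without mouse 29, and it was 0.0554 with only the groups compared and 0.0695 with Xist as a covariate.

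The genes called in 1 genotype alone were Col10a1, Col25a1 and Col28a1 in Pkd2+/+ mice and Col19a1 in Pkd2 Δ17/Δ17 mice. Col19a1, a FACIT of nerve and muscle, had 4, 8 and 0 counts in noncystic and no count in cystic Pkd2 Δ17/Δ17 mice (edgeR adjusted p = 0.0437), and it lost the call whenever a noncystic mouse with counts or any cystic mouse was left out, with adjusted p between 0.0762 and 0.160. Col14a1 lost its call without mouse 22 (0.0926) or mouse 29 (0.102), and Col6a3 lost it without mouse 22 (0.0579), 23 (0.0843), 29 (0.0805) or 30 (0.0694). Col6a5 had 21, 35 and 52 counts in noncystic and 3, 1 and 15 counts in cystic mice (log2 -2.66, SE 0.58, edgeR adjusted p = 0.00269), and its log2 difference was -4.26 without mouse 30.

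Whether loss of the miR-17 motif of Pkd2 changed the collagens of cystic kidneys was asked by setting cystic Pkd2 Δ17/Δ17 against cystic Pkd2+/+ mice. The cystic Pkd2+/+ mice also stand in the disease comparison in Pkd2+/+ kidneys, so the 2 comparisons are not independent. Of the 43 collagens, 4 were called, against 2.23% of all genes tested. Of these, 3 were lower, where 1.04% of all genes were, and 1 was higher. At an unadjusted p under 0.05 there were 13, where 14.3% of all genes tested were. The Pkd2 Δ17/Δ17 mice lay wholly below for 8 of the 43 collagens, against 10.2% of all genes. They lay wholly above for 2 of the 43, against 8.79% of all genes. The lower genes were Col8a1, Col8a2 and Col12a1, whose log2 differences with disease in Pkd2+/+ mice were 2.90, 2.09 and 3.85, and the higher gene was Col4a3, at -0.76 there.

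Col8a1 was at 94.2, 38.7 and 52.7 CPM in cystic Pkd2+/+ mice and at 15.4, 15.4 and 26.6 CPM in cystic Pkd2 Δ17/Δ17 mice (log2 -1.70, SE 0.27, edgeR adjusted p = 0.00428). The groups did not overlap, and the lower group still lay above the noncystic mice, which were at 6.49 to 9.92 CPM. Col8a2 was at 29.6, 24.5 and 25 CPM against 13.5, 15.1 and 14.0 CPM (log2 -0.90, SE 0.14, edgeR adjusted p = 0.00324), and the 2 groups were each tight and well separated. Both calls of type VIII collagen held under each of the 15 alternatives run for this comparison.

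Col12a1 was at 316, 458 and 311 CPM in cystic Pkd2+/+ mice and at 128, 232 and 216 CPM in cystic Pkd2 Δ17/Δ17 mice (log2 -0.91, SE 0.18, edgeR adjusted p = 0.0160). The groups did not overlap. Its adjusted p was 0.0825 when only these groups entered the fit. Col4a3 was at 158, 174 and 129 CPM against 254, 226 and 200 CPM (log2 0.56, SE 0.12, edgeR adjusted p = 0.0194), again without overlap. The adjusted p of Col4a3 was 0.103 without mouse 27, 0.127 without mouse 28, 0.0799 without mouse 29 and 0.0629 when only these groups entered the fit. Without mice 27 and 30 together, 4 collagens were called, Col8a1 at -2.12, Col8a2 at -0.92, Col12a1 at -1.10 and Col4a3 at 0.53.

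**Figure D5:**
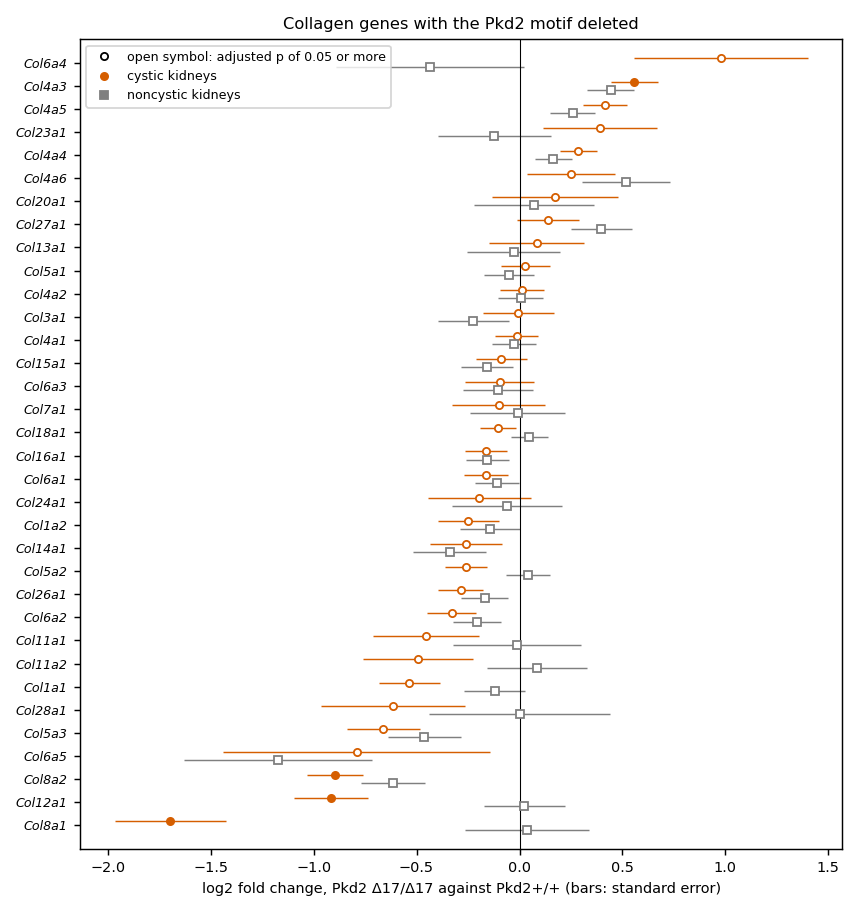
Log2 fold change (x axis) between Pkd2 Δ17/Δ17 and Pkd2+/+ mice for the 34 tested collagen genes with a mean of at least 1 CPM in a Pkd2+/+ group (y axis), in cystic (orange circles) and noncystic kidneys (grey squares), with bars for the standard error and filled symbols for an adjusted p under 0.05. Col8a1, Col12a1 and Col8a2 lie furthest to the left among cystic kidneys, and all noncystic symbols are open.

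Col1a1 was at 668, 862 and 764 CPM in cystic Pkd2+/+ and 376, 634 and 572 CPM in cystic Pkd2 Δ17/Δ17 mice. These groups did not overlap, but the difference missed the threshold (log2 -0.54, SE 0.15, edgeR adjusted p = 0.0741). The adjusted p was 0.0112 with DESeq2 and 0.0291 without mouse 25. Col1a2 overlapped (log2 -0.25, SE 0.15, edgeR adjusted p = 0.482), and the ratio of Col1a1 to Col1a2 per kb was 1.03, 1.14 and 1.18 in these Pkd2 Δ17/Δ17 mice, between the ratios of the noncystic and the cystic Pkd2+/+ mice.

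Col3a1 had nearly equal means of 1284 ± 383 and 1278 ± 190 CPM (SD, n = 3) in the cystic groups, with a log2 difference of -0.01 (SE 0.17, edgeR adjusted p = 0.990). The ratio of Col3a1 to Col1a1 per kb was accordingly 1.11 ± 0.191 in cystic Pkd2+/+ and 1.66 ± 0.247 in cystic Pkd2 Δ17/Δ17 mice. Col4a1, Col4a2, Col5a1 and Col15a1 likewise had log2 differences of at most 0.09 in size, all with an adjusted p over 0.8. Col5a3, a minor chain of type V collagen, was at 8.48, 8.47 and 7.67 CPM against 4.37, 5.33 and 5.87 CPM without overlap (log2 -0.66, SE 0.18, edgeR adjusted p = 0.0639). Its adjusted p was 0.0121 with DESeq2 and 0.0163 with edgeR and no filter on low counts.

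The remaining chains of the glomerular basement membrane leaned the way of Col4a3 without passing the test. Col4a5 was at 121, 145 and 113 CPM against 182, 179 and 144 CPM, overlapping by 1 mouse (log2 0.42, SE 0.11, edgeR adjusted p = 0.0578). With library totals, the adjusted p of Col4a5 was 0.0414, and the collagens called were then 2 higher and 3 lower. It was also 0.0119 with DESeq2, 0.0229 without mouse 26 and 0.0151 without mouse 30. Col4a4 had a log2 difference of 0.29 (SE 0.09, edgeR adjusted p = 0.118) and did not overlap, and its adjusted p was 0.0289 with DESeq2. The podocyte list had no called gene in this comparison, and its range of 382 to 466 CPM in cystic Pkd2 Δ17/Δ17 mice overlapped that of 341 to 399 CPM in cystic Pkd2+/+ mice. Col6a4, at 0.774 to 1.37 CPM and then 0.817, 1.96 and 3.46 CPM, and Col22a1, with 1 count in each cystic Pkd2+/+ mouse and 0, 12 and 14 counts in the Pkd2 Δ17/Δ17 mice, were highest in mouse 30, the library with most adrenal markers, and did not pass the test.

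In noncystic kidneys, removal of the Pkd2 motif called no collagen with edgeR, limma-trend or DESeq2. With edgeR, 0.00406% of all genes tested were called. At an unadjusted edgeR p under 0.05 there were 7 of the 43 collagens, against 6.31% of all genes tested. Col4a3 had a log2 difference of 0.44 (SE 0.12, edgeR adjusted p = 0.771), at 283, 241 and 258 CPM in Pkd2+/+ and 318, 376 and 372 CPM in Pkd2 Δ17/Δ17 mice, without overlap. Col8a2 had one of -0.62 (SE 0.16, edgeR adjusted p = 0.771), at 6.39, 5.59 and 6.61 CPM against 3.54, 3.60 and 5.01 CPM, also without overlap. The adjustment over all genes left both far from the threshold, and Col8a1 and Col12a1 differed by 0.04 and 0.02.

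The difference between the disease effects of the 2 Pkd2 genotypes, tested as an interaction, called no collagen with edgeR, limma-trend or DESeq2. With edgeR, 0.0122% of all genes tested were called. At an unadjusted edgeR p under 0.05 there were 4 of the 43 collagens, against 8.33% of all genes tested. The interaction was -1.73 for Col8a1 (SE 0.40, edgeR adjusted p = 0.175) and -0.94 for Col12a1 (SE 0.27, edgeR adjusted p = 0.304). For Col8a1 it passed the threshold when mouse 26 was left out (-1.98, edgeR adjusted p = 0.0276) or mouse 30 was left out (-2.05, edgeR adjusted p = 0.0427), and in no other mouse's absence. An effect of the motif on collagens particular to cystic kidneys was therefore not shown at the threshold with all 12 mice.

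The genes that make and modify collagen also changed with disease. In cystic Pkd2+/+ kidneys, 16 of 31 tested genes of collagen synthesis and processing were higher and 6 lower, with a median log2 difference of 0.32, and in Pkd2 Δ17/Δ17 mice 16 were higher and none lower. In Pkd2+/+ mice P4ha3, a subunit of the prolyl hydroxylase that stabilises the triple helix, differed by 2.63 (SE 0.58, edgeR adjusted p = 0.00202), and Adamts3, which cuts the amino-terminal propeptide, by 1.48 (SE 0.30, edgeR adjusted p = 0.000909). Both were at low levels. P4ha3 was at 0.126 CPM in noncystic and 0.801 CPM in cystic mice, and Adamts3 at 0.955 and 2.67 CPM (means of 3 mice). The lowest were Tll1, a relative of the carboxy-terminal procollagen protease Bmp1, at -1.03 (SE 0.27, edgeR adjusted p = 0.00730) and Adamts14, another amino-terminal protease, at -0.97 (SE 0.16, edgeR adjusted p = 0.000179). In Pkd2 Δ17/Δ17 mice Adamts3 was called again, at 1.49 (edgeR adjusted p = 0.00225). P4ha3, Tll1 and Adamts14 were not called there, at 1.43, -0.18 and -0.42 (edgeR adjusted p = 0.107, 0.696 and 0.0749). With the Pkd2 motif deleted in cystic kidneys, 2 of the 31 were higher and 1 lower.

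Of 9 genes for collagen receptors and uptake, 6 were higher and none lower in cystic Pkd2+/+ kidneys, with a median of 0.62, and 5 were higher in Pkd2 Δ17/Δ17 mice. In Pkd2+/+ mice Itga11, the integrin chain that binds fibrillar collagen on fibroblasts, differed by 2.56 (SE 0.28, edgeR adjusted p = 2.34e-06) and Lair1, an inhibitory collagen receptor of leukocytes, by 1.27 (SE 0.29, edgeR adjusted p = 0.00229). Lair1 was not called in Pkd2 Δ17/Δ17 mice, at 0.52 (edgeR adjusted p = 0.255). The smallest differences among those called were 0.25 for Itgb1, the common beta chain of collagen-binding integrins (edgeR adjusted p = 0.0392), and 0.62 for Mrc2, the endocytic collagen receptor (edgeR adjusted p = 0.000350).

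Of 10 proteoglycans and linkers of fibrils, 5 were higher and 3 lower in cystic Pkd2+/+ kidneys and 6 higher and 2 lower in cystic Pkd2 Δ17/Δ17 kidneys. Fn1, the fibronectin on which collagen fibrils assemble, differed by 1.33 (SE 0.13, edgeR adjusted p = 8.79e-07) and Postn, the matricellular periostin, by 1.23 (SE 0.14, edgeR adjusted p = 5.07e-06). The small leucine-rich proteoglycans Ogn and Lum were lower, at -0.95 (SE 0.12, edgeR adjusted p = 1.13e-05) and -0.70 (SE 0.25, edgeR adjusted p = 0.0440). Lum was not called in Pkd2 Δ17/Δ17 mice, at -0.34 (edgeR adjusted p = 0.399). No gene of the receptors or of the linkers was called when the Pkd2 motif was deleted in cystic kidneys.

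Marker genes of the cells that may hold these transcripts are given beside the collagens. In cystic against noncystic Pkd2+/+ kidneys none of 6 fibroblast genes was higher and 2 were lower, and the list, which shares Dcn and Lum with the linkers, summed to 379 to 439 CPM in noncystic and 317 to 416 CPM in cystic mice. Of 6 genes of mural cells or myofibroblasts, 3 were higher and none lower (316 to 427 and 533 to 861 CPM). All 6 macrophage genes were higher (121 to 127 and 283 to 392 CPM). All 6 proximal tubule genes were lower (6965 to 8827 and 2469 to 3672 CPM), and of the endothelial genes the list summed to 640 to 740 and 472 to 507 CPM. Thick ascending limb genes were higher in 1 and lower in 4 cases, collecting duct genes higher in 3 and lower in none, and genes of fat tissue higher in 1 and lower in 4. The fat list summed to 559 to 1136 CPM in noncystic mice, highest in mouse 20, and 201 to 316 CPM in cystic mice. Whether fat tissue in the samples bore on the collagens was not tested.

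In the comparison of the cystic groups, 3 of 6 macrophage genes were lower with the motif deleted (283 to 392 CPM in Pkd2+/+ and 215 to 271 CPM in Pkd2 Δ17/Δ17 mice), 2 of 6 proximal tubule genes were higher (2469 to 3672 and 3400 to 4702 CPM), and 3 of 6 thick ascending limb genes were higher (1736 to 2453 and 3354 to 3433 CPM). No fibroblast, mural cell, endothelial, podocyte, collecting duct, adrenal, fat or cartilage marker was called there. Col8a1, Col8a2 and Col12a1 were higher with disease and lower with the deletion, as was the summed macrophage list. The mean sums of 2 other lists took that course in noncystic Pkd2+/+, cystic Pkd2+/+ and cystic Pkd2 Δ17/Δ17 mice. They were 366, 714 and 588 CPM for mural cells or myofibroblasts and 1206, 2397 and 1821 CPM for collecting duct. For both lists the cystic groups overlapped. Col4a3 took the opposite course. So did the mean sums of the thick ascending limb list, at 3228, 2124 and 3395 CPM in the same groups. Those of the proximal tubule, podocyte, endothelial, fibroblast and fat lists did as well. Of these, only the thick ascending limb list had cystic groups that did not overlap. The part of cell makeup in these differences was not tested.

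The collagens with and without the miR-29 seed match were set side by side. In the disease comparison in Pkd2+/+ mice, of 24 tested genes with a match 12 were higher and 5 lower, with a median log2 difference of 0.46, and of 19 without a match 7 were higher and 2 lower, with a median of -0.09. In Pkd2 Δ17/Δ17 mice the medians were 0.49 and 0.47. With the motif deleted in cystic kidneys, 1 gene with a match was higher and 1 lower, while 2 genes without one, Col12a1 and Col8a2, were lower.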

How the data were processed

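Whole-kidney total RNA was sequenced by the submitters in 12 mice. Per the labels and the study's methods, the authors trimmed reads with Trim Galore 0.6.3 and aligned them to GRCm38 with STAR 2.5.3a, and the deposited values are raw read counts per gene from STAR's counting against Ensembl models. Genes without a name (343) held 0.0225% of the counts and were kept, so that those above the cutoff on level were tested. Counts were tested with edgeR 4.0.16 (R 4.3.3): TMM scaling, a minimum average log2CPM of -3 (24642 genes kept), a model with a mean for each group fitted to the 12 mice together (8 residual degrees of freedom), quasi-likelihood tests and Benjamini-Hochberg adjustment over all genes tested at 0.05. The median standard error of a log2 difference was 0.11 among genes at a log2CPM of 1 or more. CPM per kb used the union of exons in GENCODE M21, whose identifiers covered 99.93% of the table. Seed matches were read on the transcript strand from the coding transcript of each gene with the longest 3'-UTR. Gly-X-Y runs were read from the coding transcript with the longest coding sequence, which was not always the same one. Scripts were tested on simulated data.

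The collagens and every list were chosen with earlier results of these data known. Collagens named with values were those called in any comparison and a fixed set of main chains, with others named after their values were seen. From each pathway list the 2 called genes with the highest and the 2 with the lowest difference were named. Alternatives were limma-trend 3.58.1 on library totals, DESeq2 1.42.0, library totals or DESeq2 size factors in edgeR, other filters, fits of the compared groups alone, Xist as a covariate and leaving out each mouse. Leaving out mice 27 and 30 together was chosen after seeing the data. No libraries of a group agreed within sampling noise, and all were counted.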

Additional observations from a re-analysis of the deposited data

How the results depend on the processing

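The edgeR calls were recomputed under the alternatives. Of the calls, 21 of 26 (disease, Pkd2+/+), 18 of 24 (disease, Pkd2 Δ17/Δ17) and 2 of 4 (motif deletion, cystic) held under each one that gave a value. With library totals the median gene moved by 0.16 and 0.15 on the log2 scale in the disease comparisons, and all genes split 6251 higher and 2468 lower in place of 4170 and 3495 in Pkd2+/+ mice. For the motif deletion in cystic kidneys, collagens called were 8 with DESeq2, 10 with no filter on low counts and 2 with only the groups compared. With no filter, 4 were called in noncystic kidneys and 2 for the interaction; there the estimated prior degrees of freedom became infinite, so that every gene is given the spread of the trend and calls are easier. Leaving out 1 mouse gave 0 to 1 calls for the interaction. Collagen counts in the disease comparisons stayed within 1.5 times. Counts of called genes over all genes changed as well, with 33 classed as moved and 47 as the same across the comparisons and alternatives. The counts of called collagens under an alternative, here and above, are given without the share of all genes called under it. Whether such a change was particular to collagens was not tested.

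Signs turned for differences that were not called: Col6a2 in disease, Pkd2+/+ (0.141 with limma-trend, 0.127 with library totals, 0.021 with Xist, 0.011 without mice 27 and 30, -0.138 to 0.123 without 1 mouse) and Pkd2 Δ17/Δ17 (0.002 with limma-trend), Col6a1 in Pkd2+/+ (0.022 with limma-trend, 0.018 with library totals), Col19a1 in Pkd2+/+ (0.249 without mice 27 and 30, -0.964 to 0.554 without 1 mouse) and Col25a1 in Pkd2 Δ17/Δ17 (0.112 without mice 27 and 30, -0.685 to 0.112 without 1 mouse). For the deletion in cystic kidneys, Col3a1 (0.031 with limma-trend, 0.001 with library totals) and Col5a1 (-0.007 with Xist) turned. Without 1 mouse, values there ran from -0.186 to 0.248 for Col3a1, -0.109 to 0.176 for Col5a1, -0.078 to 0.126 for Col4a2, -0.297 to 0.187 for Col6a3, -0.213 to 0.099 for Col15a1, -0.049 to 0.348 for Col27a1 and -0.079 to 0.089 for Col4a1. Apart from the filter, the cause was not tested. Depth limits genes near 1 count, such as Col9a1, Col10a1 and Col19a1. No paired analysis was possible because no replicate number is shared between groups.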
